A study of Botryllus schlosseri with 78 samples.

Results

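FcoR38, FcoR62 and FcoR70 are 3 of the 69 FcoR transcripts in a table of 137 receptor and signalling transcripts of the colonial tunicate Botryllus schlosseri. They were selected on the values of SMGO and SMH colonies, which were higher in ampullae than in whole bodies. That comparison is therefore given as a description with no test. All 3 had a row in the table. The remaining rows were 66 other FcoR transcripts, 45 transcripts with names in FF and 23 other transcripts.

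A Botryllus colony is a group of small bodies, the zooids, which share a tunic and a blood system. Ampullae are the blind ends of the blood vessels at the colony's edge. Where colonies meet, contact between ampullae ends in fusion or rejection, which depends on alleles shared at the Fuhc locus. Fester and uncle fester are receptors known to take part in this allorecognition, and the series record states that searches started with their sequences led to the FcoR set. What FcoR38, FcoR62 or FcoR70 does is not known from the sources used here. Their names match no symbol of the reference annotation, so no position or sequence is given.

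RNA sequencing covered 77 libraries with values. Ampullae tissue, labelled as vasculature cells, came from SMGO (4 libraries, counted as 3 replicates because 2 are named technical and were averaged), SMH (3 libraries) and 3 lines of SB825, namely FX, FEA and FDA (3 libraries each). Whole bodies came from SB825, SKI, SMGO and SMH, with 3 libraries each. Whole male colonies (genotypes M001, MADM, MDR) were sampled once at each of 7 stages of the budding cycle, A1, A2, B1, B2, C1, C2 and D. Blood, as all blood cells, came from the 3 individuals FL3, FLLC2 and LFC4. Sorted cells were 8 libraries positive for integrin alpha-6 (IA6) from the individuals 79C, 79G, 81A and 81C, 4 IA6-negative libraries from 81A and 81C, and 5 libraries of BSA vascular cells. Cells positive and negative for aldehyde dehydrogenase (ALDH) activity were taken from individuals 1 and 7, labelled losers, and 2B and 6, labelled winners, with 1 library per fraction. The labels give no age, Fuhc genotype or relation between the SB825 lines and the SB825 whole bodies.

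Each value is read as a TMM-scaled TPM, a share of the RNA of these 137 transcripts per unit of transcript length. A value of 0 means that a transcript is listed at 0. The files keep no read totals. As a stand-in for depth, the smallest value of 1 or more was taken in each library. It was 7.41 to 20.1 in SMGO and SMH whole bodies and 28.1 to 86.9 in ampullae. It reached 2337 in BSA libraries, of which a pair detected only 7 and 18 transcripts. The 23 remaining transcripts were all detected in every library outside that pair. No row carries the name of a marker of vasculature, germline, muscle or haemocytes, so the labelled tissues could not be checked against markers. The first SB825-FX library stood apart from the other 2 of its line, and results that rest on it are given with and without it. These are bulk samples, and fewer cells of a type cannot be told apart from less RNA per cell.

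FcoR38 lay near the lowest detectable level in whole bodies of SMGO and SMH and was higher in their ampullae. In SMGO whole bodies its values were 18.9, 23.1 and 18.8, a mean of 20.3 ± 2.46 (SD, n = 3). In SMGO ampullae the technical libraries gave 412 and 852, and replicates 2 and 3 gave 525 and 469. The mean of 542 ± 83.0 (SD, n = 3) was 26.7 times that of whole bodies, and the groups did not overlap. In SMH the whole-body values were 0, 12.4 and 9.87, and the ampullae values were 42.6, 290 and 151. Here too the groups did not overlap, and the ampullae mean of 161 ± 124 (SD, n = 3) was 21.7 times the whole-body mean of 7.41 ± 6.53 (SD, n = 3). All 5 whole-body values above 0 lay within 1.9 times the lowest value of their library. The part of depth in the whole-body level of FcoR38 was not tested. Of the ampullae libraries, SMH replicate 1, at 42.6, was 1.47 times the lowest value of its library, and the others of these colonies lay further above.

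FcoR62 had higher levels than FcoR38 in both tissues of these colonies, and its tissues overlapped in SMH. SMGO whole bodies gave 384, 275 and 587, and SMGO ampullae gave 1644 and 2414 in the technical libraries and 3637 and 2117 in replicates 2 and 3. The SMGO means were 415 ± 158 and 2594 ± 904 (SD, n = 3 each), 6.25 times apart, with no overlap. SMH whole bodies gave 262, 351 and 264, and SMH ampullae gave 2191, 956 and 324. The third SMH ampullae library thus fell below the highest SMH whole body, although the means, 1157 ± 950 and 292 ± 50.7 (SD, n = 3 each), were 3.96 times apart.

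FcoR70 was the most abundant of the 3 in both tissues of SMGO and SMH. SMGO whole bodies gave 2035, 873 and 1357, and SMGO ampullae gave 5088 and 13613 in the technical libraries and 9017 and 5988 in replicates 2 and 3. The ampullae mean of 8118 ± 1852 was 5.71 times the whole-body mean of 1422 ± 584 (SD, n = 3 each). SMH whole bodies gave 1150, 841 and 1060, and SMH ampullae gave 4200, 2867 and 1291. The SMH groups did not overlap, but the lowest ampullae library was only slightly above the highest whole body, and the means, 2786 ± 1456 and 1017 ± 159 (SD, n = 3 each), were 2.74 times apart. FcoR70 made up 7.54% of the summed FcoR values in SMGO ampullae and 0.993% in SMGO whole bodies.

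**Figure D1:**
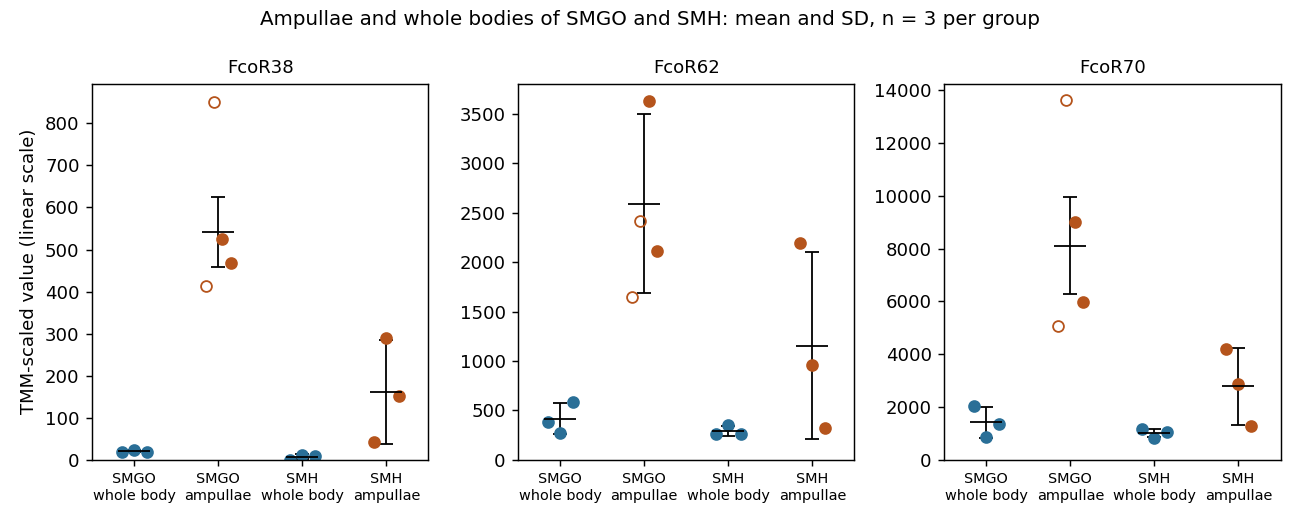
Values of FcoR38, FcoR62 and FcoR70 in whole bodies and ampullae of SMGO and SMH on linear axes. Points are libraries, open points are the SMGO libraries named technical, horizontal marks are means and bars are SD (n = 3 per group, technical libraries averaged); FcoR62 is the transcript whose SMH groups overlap, with 324 in the lowest ampullae library and 351 in the highest whole body.

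On the scale of log2(value + 1), ampullae minus whole bodies with colony as a block came to 4.60 ± 0.76 (SE) for FcoR38, 2.12 ± 0.47 for FcoR62 and 1.91 ± 0.35 for FcoR70. Among the 81 transcripts tested over both colonies, these differences ranked 4, 8 and 9 from the top. Of the 81, 35 passed limma's test at an adjusted p of 0.05 (43.2%), and 20 of them were higher in ampullae (24.7%). Because this comparison chose the members, nothing is read from their place among these. Of the 43 FcoR transcripts tested, 8 were higher and 7 lower in ampullae, with a median difference of -0.24. Of the 15 FF transcripts tested, 8 were higher and 1 lower, with a median of 0.63, and over all 81 the median was 0.014.

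Within SMGO the log2 difference was 4.64 ± 0.78 (SE) for FcoR38, 2.65 ± 0.43 for FcoR62 and 2.51 ± 0.35 for FcoR70. Within SMH it was 4.57 ± 1.63, 1.60 ± 0.89 and 1.31 ± 0.52. All 6 differences were above 0, and those of FcoR62 and FcoR70 were larger in SMGO. The SMGO difference minus the SMH difference was 0.073 ± 1.53 (SE) for FcoR38, 1.05 ± 0.91 for FcoR62 and 1.21 ± 0.62 for FcoR70. Without SMH ampullae replicate 3 it was 0.33 for FcoR62 and 0.73 for FcoR70, and without SMH ampullae replicate 1 it was 1.71 and 1.58. These values come from the libraries that chose the members, so no p is given for them. Over the whole table, 2 of 81 transcripts passed limma's test of this interaction (2.47%).

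**Figure D2:**
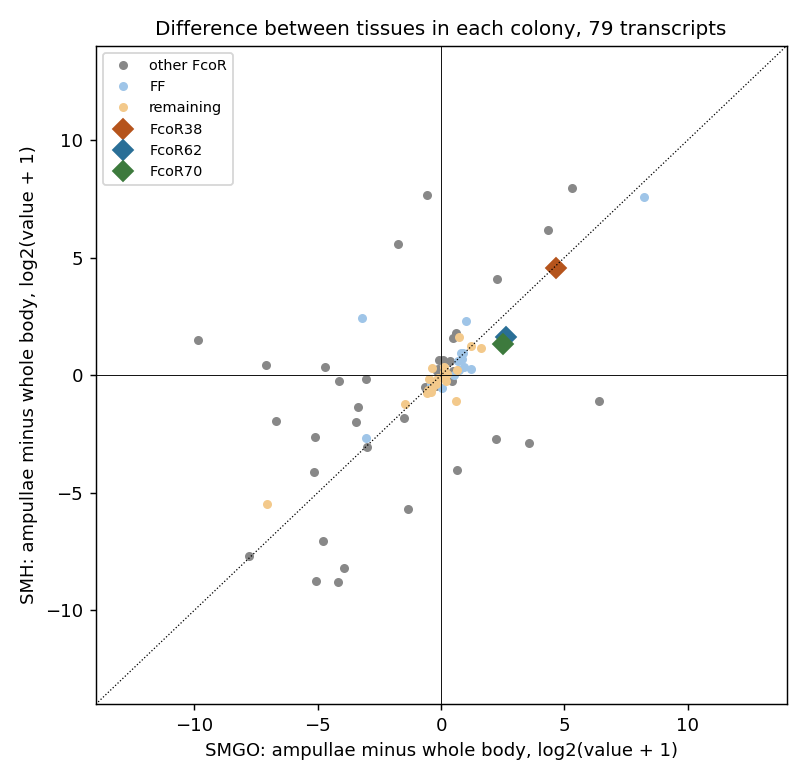
Ampullae minus whole-body difference on the scale of log2(value + 1) for 79 of the 81 transcripts (for the other 2 no difference could be computed in SMH), in SMGO on the horizontal axis and in SMH on the vertical axis, with equal differences on the dotted line. FcoR38 lies close to the dotted line at 4.64 and 4.57, while FcoR62 and FcoR70 lie below it.

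The SB825 ampullae lines and the whole bodies of SB825 and SKI took no part in the choice of the members. Among them FcoR38 was high in ampullae and listed at 0 in whole bodies, whereas FcoR62 and FcoR70 were not higher in ampullae. The labels give no relation between these lines and the SB825 whole bodies, and SKI is a separate colony. Tissue and genotype therefore cannot be told apart in this comparison. FcoR38 was 11378, 15770 and 19703 in SB825-FEA and 15253, 19012 and 17787 in SB825-FDA. In SB825-FX it was 13184, 159.6 and 68.1, so that a single library matched the other lines. The 6 values of the other lines and this one were the highest of FcoR38 in any library. All 6 whole bodies of SB825 and SKI had FcoR38 listed at 0.

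Tested on 1 log2 mean per line or colony (3 ampullae lines against 2 whole-body colonies), FcoR38 was higher in ampullae, with a difference of 12.34 ± 1.90 (SE) and a limma adjusted p of 0.0163. FcoR38 entered this fit only through the ampullae, where it is high. The whole bodies, all at 0, added no spread, so nothing is concluded from its p under any setting. The difference is set against groups at 0, depends on the pseudocount and is no bound on the fold. FcoR38 was 1 of 6 transcripts called higher among 97 tested (6.19%), and 25 were called in either direction (25.8%). With a pseudocount of 100 the adjusted p of limma was 0.0543, and without SB825-FEA, SB825-FDA, whole-body SB825 or whole-body SKI it lay between 0.0619 and 0.091. Over all settings tried it ran from 9.37e-05 to 0.091 by limma. In these 97 transcripts the median difference was -0.76, and rescaling every library to the same sum moved it by 0.56 to -0.20. FcoR38 then stood at 12.51 (limma adjusted p = 0.021).

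FcoR62 was listed at 0 in 5 of the 9 SB825 ampullae libraries and lay between 77.3 and 292 in the other 4. In SB825 whole bodies it was 53.5, 103 and 50.6, and in SKI it was 42.0, 168 and 0. The difference of ampullae minus whole bodies was -2.01 ± 2.14 (SE), with a limma adjusted p of 0.475. FcoR70 was listed at 0 in 7 of the 9 ampullae libraries and was 564 in 1 SB825-FEA library and 295 in 1 SB825-FDA library. In whole bodies it was 159, 104 and 72.4 in SB825 and 376, 0 and 390 in SKI. Its difference was -4.30 ± 1.67 (SE), with a limma adjusted p of 0.12. Neither passed the test. The FcoR62 estimate was -0.44 without SB825-FX and -0.13 with a pseudocount of 100, and on the linear scale its means over libraries were 68.4 in ampullae and 69.5 in whole bodies. The FcoR70 estimate was -0.76 with a pseudocount of 100, with linear means of 95.5 and 183. The lowest detectable values were higher in the SB825 ampullae libraries (35.5 to 86.9) than in these whole bodies (4.91 to 58.5), and the part of this gap in the zeros of FcoR62 and FcoR70 was not tested.

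**Figure D3:**
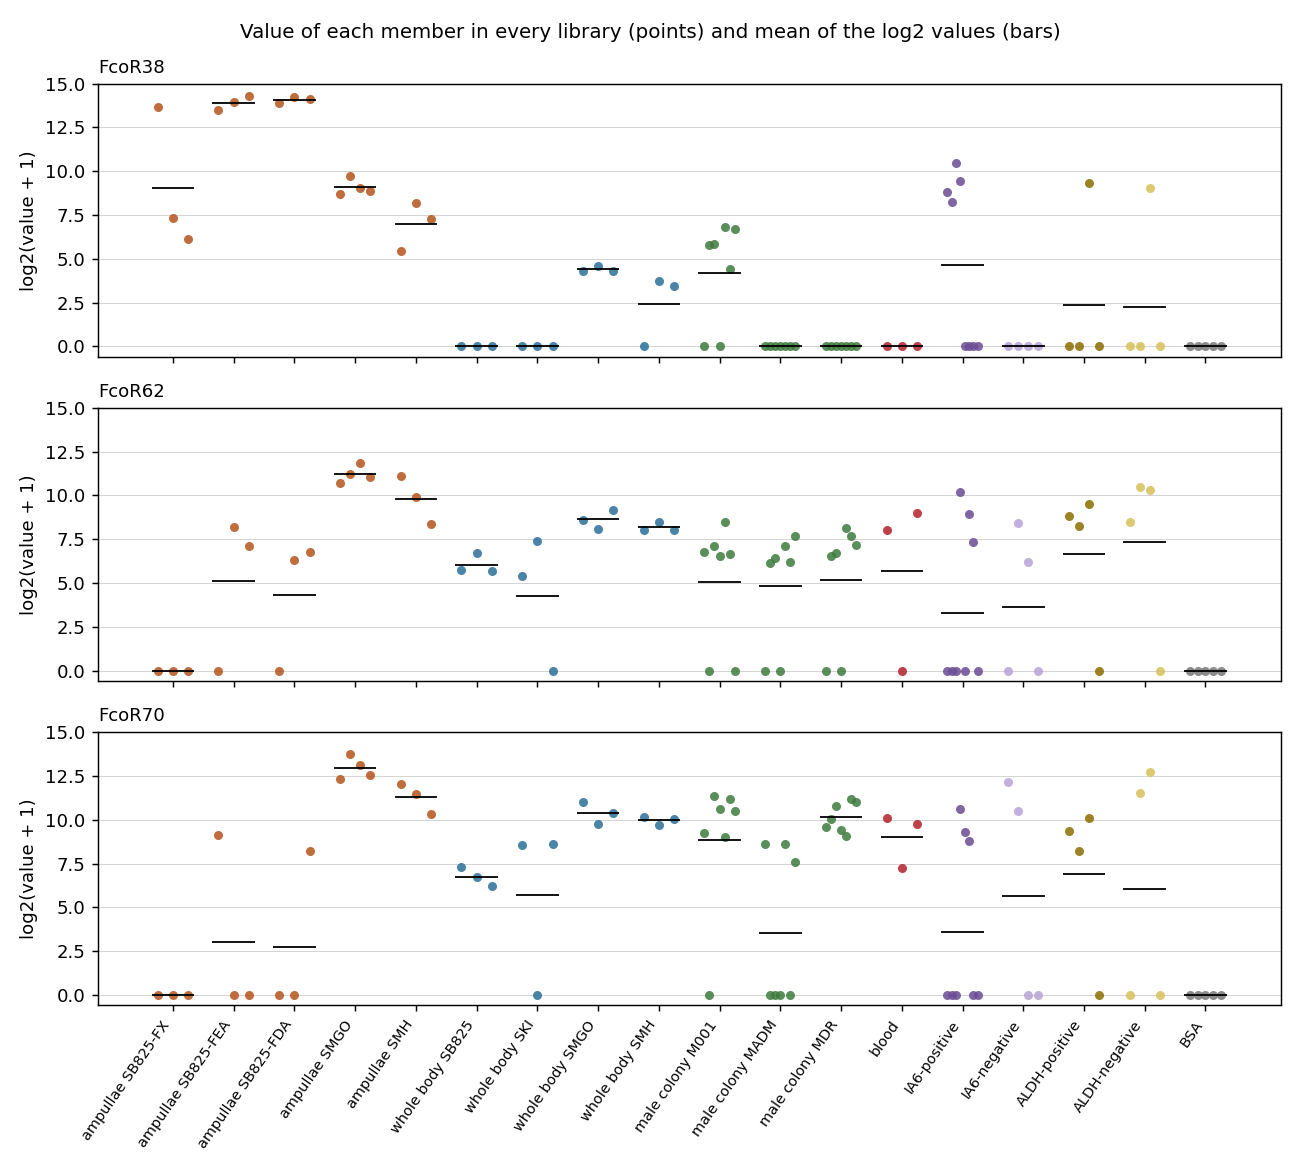
Value of each transcript in every library, as log2(value + 1), with points for libraries, colours for sample classes and black bars for the mean of the log2 values. FcoR38 is detected in all 16 ampullae libraries and is at 0 in every library of blood, MADM, MDR, IA6-negative cells, BSA cells and whole-body SB825 and SKI; FcoR62 and FcoR70 are highest in SMGO ampullae and mostly at 0 in the SB825 lines.

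Among ampullae FcoR38 was highest in SB825-FDA and SB825-FEA, and FcoR62 and FcoR70 were highest in SMGO. FcoR38 followed the order SB825-FDA (mean 17351), SB825-FEA (15617), SB825-FX (4470), SMGO (542) and SMH (161). The place of SB825-FX rested on its first library. Its replicates 2 and 3, at 159.6 and 68.1, lay below the means of SMGO and SMH, so without the first library SB825-FX came last. SB825-FDA and SB825-FEA overlapped, and SB825-FX, with its spread from 68.1 to 13184, overlapped all groups but SB825-FDA. FcoR62 and FcoR70 were highest in SMGO, then SMH, then SB825-FEA and SB825-FDA, and were listed at 0 in all 3 SB825-FX libraries. For FcoR62, SMGO and SMH overlapped, while FcoR70 was higher in every SMGO library than in any SMH library. The range of log2 means over the 5 groups was 7.12 for FcoR38, 11.28 for FcoR62 and 12.90 for FcoR70. The SMGO and SMH ampullae among these groups took part in the choice of the members, so no test is given for them here. In the limma F test over the whole table, 61 of 100 transcripts passed (61%).

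FcoR38 was the second most abundant FcoR transcript in SB825-FDA ampullae, at 15.3% of the summed FcoR values, and the third in SB825-FEA, at 12.8%. In SMGO and SMH ampullae it ranked 20 and 33 among FcoR transcripts, at 0.503% and 0.153%. Among the 3 SB825 lines alone, its range of means was 5.04 and did not pass (limma adjusted p = 0.217); 1 of 80 transcripts did (1.25%). This result rested on the first SB825-FX library. Without it the range was 7.36 (limma adjusted p = 1.33e-05, against up to 0.503 in other settings) and 10 transcripts passed. Over all transcripts that library correlated at 0.898 to 0.935 with the SB825-FEA and SB825-FDA libraries and at 0.809 and 0.812 with the other 2 of its own line, which correlated at 0.953 with each other. Without it, FcoR38 in ampullae stood 11.56 above the whole bodies, which were again all at 0 (limma adjusted p = 0.0448, from which nothing is concluded). FcoR62 did not pass among these lines (range 5.11, limma adjusted p = 0.512; 1.08 with a pseudocount of 100), and FcoR70 was detected in too few libraries to be tested.

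Among whole bodies the 3 transcripts shared an order in which SMGO and SMH stood above SB825 and SKI. FcoR38 was detected in SMGO and in 2 of 3 SMH libraries and was listed at 0 in SB825 and SKI, with a range of log2 means of 4.40. FcoR62 lay between 262 and 587 in SMGO and SMH and between 0 and 168 in SB825 and SKI, without overlap. FcoR70 lay between 841 and 2035 in SMGO and SMH and between 0 and 390 in the other colonies, also without overlap. Their ranges of log2 means were 4.36 and 4.67, and each has 1 SKI library at 0. With a pseudocount of 100, which gives such zeros less weight, the ranges were 0.27 for FcoR38, 1.68 for FcoR62 and 2.79 for FcoR70. The SMGO and SMH whole bodies took part in the choice of the members, so no p is given. Over the whole table, 86 of 110 transcripts passed the limma F test (78.2%), so differences between whole-body colonies were common. How many transcripts part these colonies without overlap was not counted.

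Male whole colonies, which differ from the whole bodies in genotype and sampling, differed by genotype in FcoR70 and showed no stage difference that passed. FcoR70 was detected at all 7 stages in MDR (534 to 2352, median 1073), at 6 of 7 in M001 (0 to 2599, median 1440) and at 3 of 7 in MADM (0 to 398, median 0). The 7 MDR values all exceeded the 7 MADM values, and the range of log2 means was 6.61 (limma F test, adjusted p = 0.00736). Of 106 transcripts, 85 passed (80.2%), so genotype differences were common and passing does not set FcoR70 apart. How many transcripts part MDR and MADM without overlap was not counted. FcoR62 was detected at 5 of 7 stages in each genotype, up to 360 in M001, 207 in MADM and 278 in MDR, and its range of log2 means was 0.38 (limma adjusted p = 0.972). FcoR38 was listed at 0 in all MADM and MDR libraries and detected in 5 of 7 M001 libraries, at 20.1 to 113. It was too rarely detected to be tested, and 4 of these 5 values were the lowest of at least 1 in their library.

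Along the budding cycle, in which zooids are replaced by their buds, the limma F test with genotype as a block gave an adjusted p of 0.739 for each of the 3 transcripts. Of 108 transcripts, 1 passed (0.926%). For FcoR62 the highest value of M001 and of MDR fell at stage C1, at 360 and 278, while MADM had 140 there and its highest value, 207, at stage D. At stage B2, M001 was at 91.6 and MADM and MDR were at 0. FcoR70 in M001 and MDR was low at C1 (524 and 534) and high at C2 (2308 and 2352), whereas MADM had 398 at C1 and 0 at C2. With 1 library per genotype and stage, these profiles rest on single values.

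**Figure D4:**
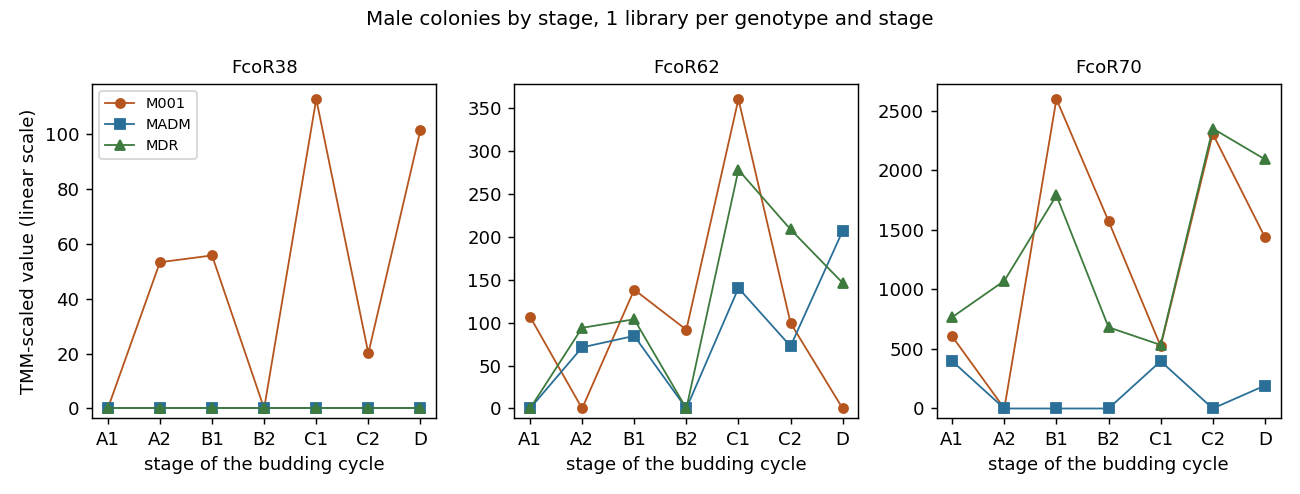
Values in male colonies at 7 stages on linear axes, with 1 library per point and 1 line per genotype. FcoR38 is above 0 in M001 alone among these genotypes, and FcoR70 is higher in MDR than in MADM at every stage.

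In blood, which fills the vessels and the ampullae, FcoR38 was listed at 0 in all 3 libraries. FcoR62 was 262, 0 and 504 and FcoR70 was 1082, 148 and 856 in FL3, FLLC2 and LFC4. Against the 3 SB825 ampullae lines, with 1 mean per individual or line, FcoR38 was lower in blood (-12.34 ± 1.48, SE; limma adjusted p = 0.00114) and FcoR70 was higher (7.09 ± 1.19; limma adjusted p = 0.00404). FcoR38 entered this fit only through the ampullae. The blood libraries, all at 0, added no spread, so nothing is concluded from its p. Its difference is the mean of the SB825 lines set against 0, as in the comparison with whole bodies. With a pseudocount of 100 the FcoR70 difference was 2.19 (limma adjusted p = 0.0287, the highest of all settings). Without the first SB825-FX library the FcoR38 difference was -11.56 (limma adjusted p = 0.0053). FcoR62 did not pass (2.52 ± 2.90; limma adjusted p = 0.468), at 0.87 without LFC4 and 5.36 without FLLC2. Of 94 transcripts, 63 passed (67%), with 31 higher (33%) and 32 lower (34%) in blood. Blood and these ampullae came from different individuals, so tissue and genotype cannot be told apart here.

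IA6 marks cells that include candidate stem cells. In IA6-positive cells FcoR38 was detected in 79C and 79G. It was 457 and 300 in 79C and 1402 and 691 in 79G, and stood at 0 in both libraries of 81A and of 81C. The range of log2 means was 9.94 (limma F test, adjusted p = 0.000204), and FcoR38 entered this fit only through 79C and 79G. The 81A and 81C libraries, all at 0, added no spread, so nothing is concluded from this p. Of 98 transcripts, 27 passed (27.6%). FcoR70 was detected in both 81A libraries (626 and 434) and in 1 of 2 libraries of 79G (1589), and in neither of 79C and 81C. It did not pass (range 9.03, limma adjusted p = 0.221). The range was 10.64 without 79G replicate 1 and 9.03 without 79G replicate 2. Each of these fits leaves 1 library of 79G, and 79C and 81C, all at 0, add no spread. Nothing is therefore concluded from them and no p is given. FcoR62 was 1174 in 1 library of 79G, 500 in 1 of 81A and 160.0 in 1 of 81C, with a limma adjusted p of 0.767.

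Positive and negative IA6 cells could be compared in 81A and 81C, where FcoR38 was listed at 0 in all 8 libraries. FcoR70 was 4501 and 1427 in IA6-negative and 626 and 434 in IA6-positive cells of 81A, without overlap, and stood at 0 in the 4 libraries of 81C. How many other transcripts part the 81A libraries in this way was not counted, so nothing is read from it. The value of 4501 came from IA6-negative 81A replicate 1, which detected 58 transcripts, the fewest of the IA6 libraries. Its difference of positive minus negative was -1.14 ± 1.02 (SE; limma adjusted p = 0.742), and -0.58 without IA6-negative 81A replicate 1. FcoR62 gave 0.42 ± 3.00 (SE; limma adjusted p = 0.969), a direction that turned when each of 4 libraries was left out in turn. Of 77 transcripts, 1 passed (1.3%).

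In ALDH-sorted cells the 3 transcripts differed from individual to individual, and no difference between the fractions passed. FcoR38 was detected in individual 6 alone, at 522 in ALDH-negative and 649 in ALDH-positive cells. In individual 7 all 3 were listed at 0 in both fractions. In ALDH-negative and ALDH-positive cells FcoR62 was 363 and 446 in individual 1, 1431 and 304 in 2B, and 1272 and 732 in 6. FcoR70 was 0 and 650, 2913 and 298, and 6660 and 1084 in the same individuals. ALDH-positive minus negative, with individual as a block, came to -0.68 ± 1.06 (SE) for FcoR62 (limma adjusted p = 0.775) and 0.86 ± 2.49 for FcoR70 (limma adjusted p = 0.867). The FcoR62 estimate was -0.17 without individual 2B. The FcoR70 estimate was -1.97 without individual 1 and -0.63 with a pseudocount of 100. Of 89 transcripts, 0 passed limma's adjusted threshold (0%), and 9 had an unadjusted p under 0.05.

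No difference between the winners, 2B and 6, and the losers, 1 and 7, passed. In ALDH-negative cells FcoR70 and FcoR62 were higher in each winner than in each loser. How many other transcripts part these individuals in the same way was not counted, so nothing is read from this order. In ALDH-positive cells the winners and losers overlapped. With 1 mean per individual the difference was 5.31 ± 4.85 (SE) for FcoR62 and 8.29 ± 4.65 for FcoR70, each with a limma adjusted p of 0.975 (2 individuals against 2). The FcoR62 difference was 0.99 without individual 7 and 9.64 without individual 1, and that of FcoR70 was 5.96 and 10.63. Of 100 transcripts, 0 passed limma's adjusted threshold (0%), and 3 had an unadjusted p under 0.05. FcoR38, found in winner 6 alone, was not tested.

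BSA vascular cells are a sorted vascular fraction, per the labels. All 3 transcripts were listed at 0 in all 5 libraries. The lowest value of at least 1 in these libraries lay between 84.1 and 2337. The FcoR38 mean in SMH ampullae, 161, lay below that value in SB05 (169), SB07-09 (2337) and SB10-11 (2034). By this measure such a level could not be seen there.

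Over all 77 libraries FcoR38 was detected in 32, FcoR62 in 50 and FcoR70 in 49. FcoR38 was present in at least 1 library of 12 of the 34 combinations of sample class and colony or individual, against 24 for FcoR62 and 22 for FcoR70. FcoR62 and FcoR70 were found together in 40 libraries and were both absent in 18. In the 40 libraries that held both, the ratio of the FcoR70 to the FcoR62 level had a median of 2.98 and ran from 0.868 to 23.2. In the 12 male libraries with both, the median was 11.4, against 2.91 in the 8 ampullae libraries and 3.07 in the 10 whole bodies with both.

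**Figure D5:**
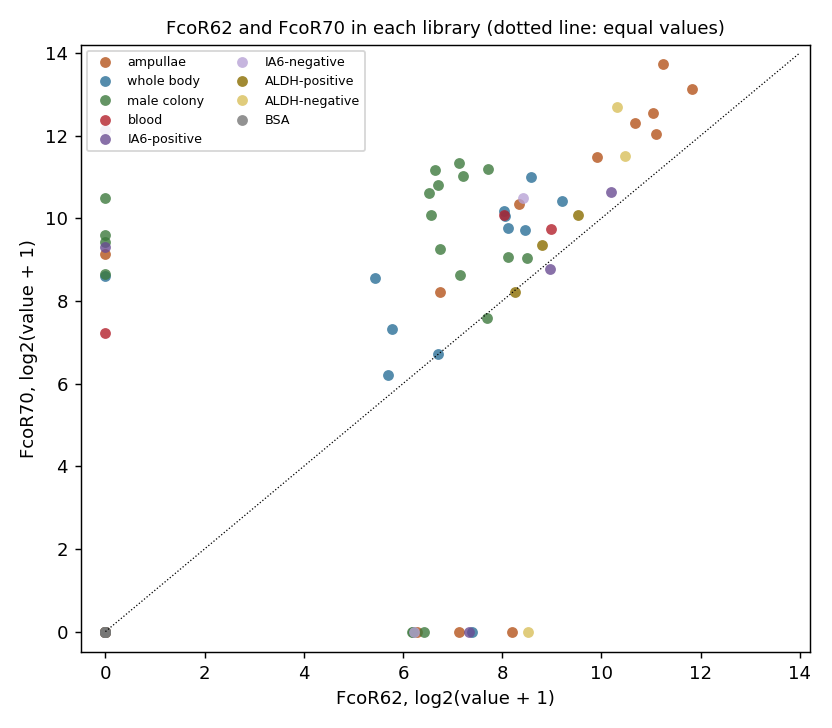
FcoR62 on the horizontal and FcoR70 on the vertical axis in each of 77 libraries, both as log2(value + 1), coloured by sample class, with equal values on the dotted line. Most libraries that hold both lie above the line, and 18 libraries lie at 0 on both axes.

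The pattern of FcoR62 was most like that of FcoR70 among 116 transcripts detected in at least 6 combinations. Spearman's rho of their log2 means over 32 combinations was 0.809, and each was first in the other's order. Next for FcoR62 came FcoR21 (0.687) and FcoR75 (0.569), and next for FcoR70 came FcoR21 (0.606) and FF28 (0.531). FcoR38 stood apart, with rho of 0.258 to FcoR62 and 0.254 to FcoR70, which placed them 19 and 20 in its order. The transcripts most like FcoR38 were FcoR40 (0.522), FF10 (0.445) and FcoR10 (0.405). These values describe combinations that share colonies, libraries and many zeros, and depth differs between them. The combinations also include the SMGO and SMH ampullae and whole bodies, on which all 3 members were chosen for the same direction.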

How the data were processed

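Per the labels, poly-A libraries were sequenced as paired ends to a stated depth of 20 M reads per sample, with 2 RNA kits and 2 sequencing centres that no label ties to a library. Trim Galore, kallisto and RSEM were used, per the submitters' processing notes, and their versions are not given in the sources used here. The deposited signal values were made by the authors and are read as TMM-scaled TPM. The table's name states TMM, and TPM is inferred from the library sums, so the values are shares of this set of rows. Of 158 columns, 81 match no label and were not used. No values were used for BSA SB01-03. TPM keeps no read totals, so no counting interval is given.

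The SMGO ampullae libraries named technical entered as their average, taken of log2 values in the fits and of linear values in printed means. Whether other replicates come from separate colonies is not given in the labels, so the p-values cover library-to-library spread that could be purely technical. The log2(value + 1) values were fitted with limma 3.58.1 (R 4.3.3; mean-variance trend on) and p-values were adjusted by Benjamini-Hochberg over all transcripts tested, at 0.05. Transcripts entered a fit if they reached 1 in at least the number of units of the smallest group, so one that passed through a single high group entered too. Python 3.11.15 with pandas 2.3.3 gave the descriptions. The fits were tested on simulated data.

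The members, lists and tests were chosen with earlier results of these data known. Named transcripts are the 3 members and, for each, the 3 with the highest Spearman's rho to it. Equal replicate numbers did not pair samples: correlations of same-numbered deviations ranged from -0.359 to 0.368. Alternatives were pseudocounts of 10 and 100, no filter, library sums rescaled to a common total, each library or individual left out and other fits of the blocks. Line means without the first SB825-FX library and blood without FLLC2 were added after seeing the data. Comparisons that include SMGO or SMH ampullae or whole bodies are given without p for the members, since those libraries took part in the choice.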

Additional observations from a re-analysis of the deposited data

Results flagged for a closer look

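In groups of 4 to 10 libraries, a library whose gap to the nearest other exceeded Dixon's 95% critical value was singled out; chance does so in about 1 in 20 groups, and 3 of 13 groups tested had one. FcoR38 in ALDH-negative cells was 522 in individual 6 and 0 in the other 3 individuals. FcoR38 in ALDH-positive cells was 649 in individual 6 and 0 in the other 3. Where all other values are 0, any single value above 0 is singled out, so the rate of 1 in 20 does not apply. Both of these come from individual 6, and nothing is concluded from 3 of 13. FcoR62 in male M001 was 360 at stage C1, with the nearest of the other 6 stages at 138.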

How the results depend on the processing

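In the comparisons without the libraries that chose the members, 317 of 331 values of the 3 transcripts under other settings kept their side of the threshold. Differences, but not ranges, also had to keep their direction, and a value that passed under neither setting counts as kept. The count includes the FcoR38 fits against groups all at 0, from whose p nothing is concluded, so it does not measure how firm the results are. The 5 values that no longer passed were all of FcoR38 in SB825 ampullae against whole bodies. FcoR38 levels in whole bodies of SMGO and SMH and in M001 lie near the lowest value of their libraries. In M001, FcoR38 is itself that lowest value in 4 of the 5 libraries that hold it. Whether depth limits FcoR38 was not tested. The FcoR38 difference in SMGO and SMH was 1.78 with a pseudocount of 100. The SMGO minus SMH value of that difference was -0.044 with rescaled sums and ran from -0.68 to 1.27 with libraries left out. Its excess in SB825 ampullae was 5.92 with a pseudocount of 100 and 11.47 to 13.99 with lines left out. FcoR70 in ALDH cells was -0.63 with a pseudocount of 100 and -1.97 to 2.24 with individuals left out, and FcoR62 in IA6 cells ran from -1.35 to 2.24 with libraries left out. The causes were not tested.

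Counts of transcripts passing limma moved as follows. The interaction gave 4 with a pseudocount of 10 or 100, 1 with no filter, 1 with the replicate block, and 1 to 9 with libraries left out. The SB825 comparison gave 12 with no filter, 15 with rescaled sums, 47 over all libraries and 69 over SB825 libraries alone (correlation within line estimated), and 0 to 45 with lines left out. The SB825 lines gave 0 with a pseudocount of 100, no filter, rescaled sums or the replicate block, and 0 to 10 with libraries left out. Stages gave 0 without the genotype block and up to 2 with libraries left out, and IA6 fractions gave 0 with a pseudocount of 100. The replicate block changed no call of the 3 transcripts. FF10 for FcoR38 and FcoR21 for FcoR62 had a lower likeness by Pearson's r, at 0.279 and 0.565.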
